A study of Mus musculus with 6 samples.

Results

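The semaphorins, plexins and neuropilins are a family of guidance ligands and their receptors, and 33 of the 24421 genes listed in the count tables belong to it. Members were taken by symbol: 20 semaphorins of classes 3 to 7, 9 plexins, the neuropilins Nrp1 and Nrp2, and the plexin domain containing genes Plxdc1 and Plxdc2. All 33 passed the filter on low counts. The rule itself used symbols and no measured value. RNA-seq gave their transcript levels in 6 libraries of cultured mouse oligodendrocyte progenitors (OPCs), the proliferating precursors of myelin-forming oligodendrocytes. The control group (3 libraries) was Prrc2bf/f, with floxed alleles of Prrc2b and no Cre. The knockout group (3 libraries) was Prrc2bf/f; Olig2-Cre, with the same floxed alleles and a Cre driven from Olig2, which acts in any cell that expresses Olig2. All pups were C57BL/6J at postnatal day 4, and no library carried the Cre without floxed Prrc2b, so effects of the Cre and of Prrc2b loss cannot be told apart. Cells came from cortex, were passed over a GalC antibody dish, were collected on an O4 antibody dish and were grown in a medium for proliferation, per the labels' protocols, whereas the series' design text names brain tissue. How many animals made up a library is not stated, and replicates may not be separate animals. All p-values therefore reflect the spread among these 6 libraries, which may be technical.

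Semaphorins are secreted or membrane-bound proteins that steer migrating cells and growing axons. They bind plexins, large transmembrane receptors whose intracellular part acts on small GTPases and thereby on the cytoskeleton. Most class 3 semaphorins, the secreted vertebrate class, bind a neuropilin that pairs with an A plexin, whereas the membrane-bound classes mostly bind plexins directly. In the developing brain, class 3 semaphorins and neuropilins are known for guiding the migration of OPCs as well as of axons.

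Libraries held 26015604 to 28114968 gene counts, of which the family made up 3316 to 4067 CPM (counts scaled to the same library total). Printed CPM use library totals, whereas tests and log2 differences of pairs use TMM factors. Prrc2b, the targeted gene, stood at 928, 1079.9 and 931 CPM in control and 653, 826 and 771 CPM in knockout libraries, all below the controls, a log2 change of -0.41 with an SE of 0.06. Its edgeR adjusted p was 0.00688 once the replicate number was in the model and 1 without it. Defining markers of OPCs, taken singly, ranged from 55.1 CPM (Sox10) to 398 CPM (Pdgfra) over libraries. The full list of 15 OPC markers summed to between 2851 and 5773 CPM. None of the defining markers of neurons, astrocytes, microglia, endothelial, mural or ependymal cells was at 0 in any library. The full list of 20 neuronal markers summed to between 4351 and 6506 CPM.

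Plexins held the highest levels of the family, and class 3 semaphorins mostly the lowest. Levels of different genes were compared only per length, as CPM per kb of annotated exon. Plxnb2, a B plexin and receptor for class 4 semaphorins, was highest at 63.2 ± 6.54 CPM per kb in control libraries (SD, n = 3), and Plxnb1, the receptor of Sema4d, was next at 37.1 ± 7.83. Sema4c, a membrane-bound ligand of Plxnb2, followed at 29.5 ± 3.21 CPM per kb, which overlaps Plxnb1 within the spread. The A plexins Plxna2, Plxna3, Plxna4 and Plxna1 stood at 27.3 ± 1.85, 24.2 ± 1.43, 17.6 ± 7.37 and 16.9 ± 2.97 CPM per kb. Among ligands, Sema5b, which binds A plexins, stood at 25.3 ± 4.34, the lipid-anchored Sema7a at 24.0 ± 5.78 and Sema6c at 20.7 ± 4.03 CPM per kb, and each overlapped Plxna3 over the control libraries. Neuropilins were in the middle of the family, with Nrp1 at 8.44 ± 4.75 and Nrp2 at 7.91 ± 3.60 CPM per kb. Sema3c was the only class 3 semaphorin above 3 CPM per kb in the control mean, at 15.3 ± 2.22. Sema3a, Sema3b, Sema3d, Sema3e, Sema3f and Sema3g had control means between 0.309 and 2.61 CPM per kb.

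**Figure D1:**
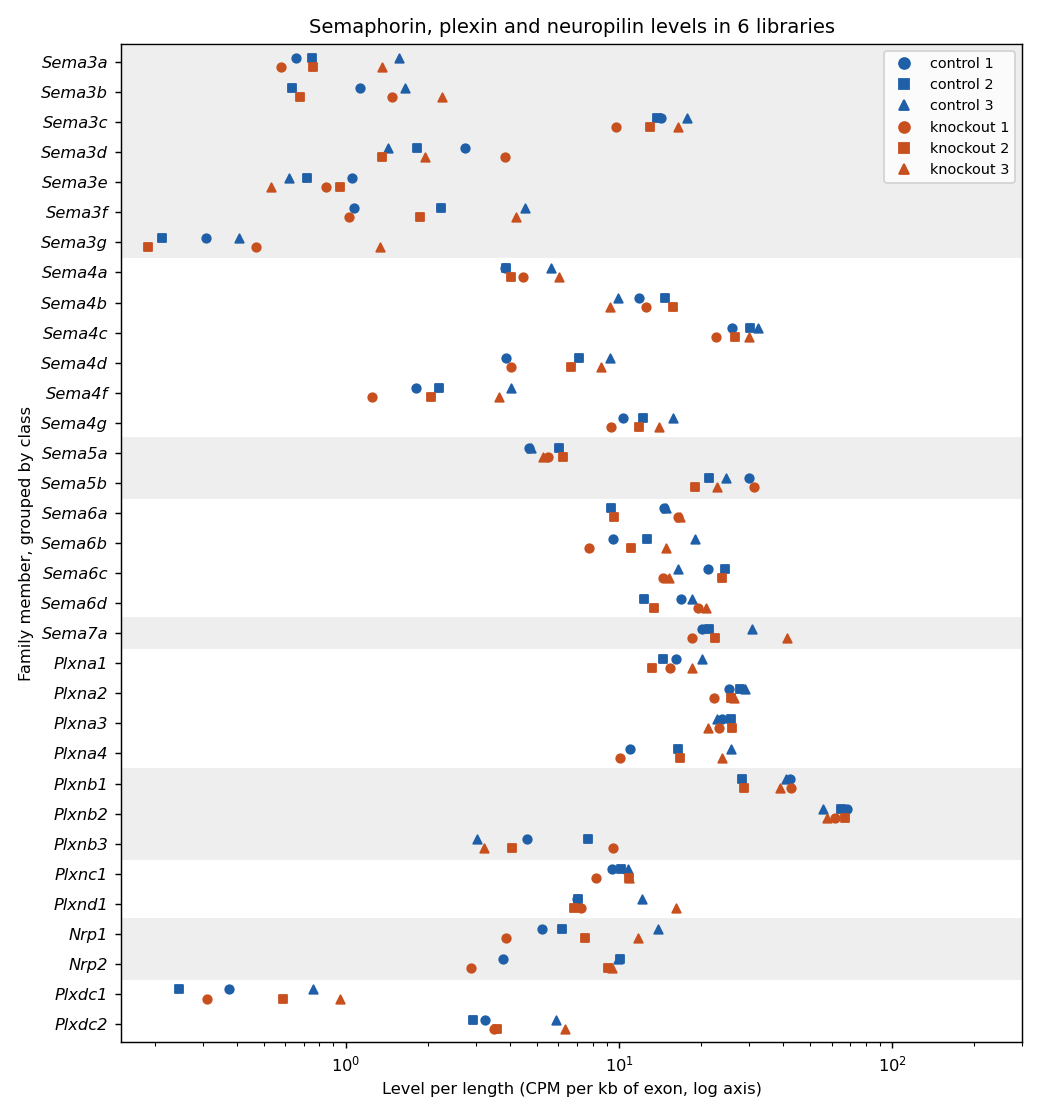
Level of each of the 33 members in every library, as CPM per kb of exon on a log axis, with control libraries in blue, knockout libraries in orange and marker shapes for replicate numbers. Plxnb2 lies highest, Sema3g and Plxdc1 lie lowest, and for every member the libraries of both genotypes overlap.

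No member separated the genotypes when libraries were compared as unpaired groups. The edgeR quasi-likelihood test called 0 of 33 members at an adjusted p under 0.05 (0% of all 15906 genes tested), and 0 of 33 had an unadjusted p under 0.05, where 1.72% of all genes did. DESeq2 and limma-voom also called 0 members. The genotypes' CPM ranges did not overlap for 0 of 33 members and for 6.11% of all genes tested. Same-numbered control and knockout libraries deviated together from their group means, so the replicate number was then added to the model as a block. With the block, 2 of 33 members fell, 0 rose and 31 did not pass, where 3.8% of all genes passed, 2.23% downward and 1.57% upward (354 and 250 genes, but 231 and 271 when scaled by library totals). The members' share of calls, 6.06%, thus rests on 2 genes and is read beside that background only. With the block and no filter on low counts, Sema3c, Sema4c and Sema6c also fell (edgeR adjusted p = 0.0318, 0.0263 and 0.049). Calls over all genes rose too without the filter, to 1034 of 20148 genes from 604 of 15906. The median log2 change of the family was -0.07 with the block, against 0.00 over all genes tested, and -0.04 against 0.03 with library totals. Single libraries turned the unblocked family median of -0.06, which was 0.03 without control library 3, 0.06 without knockout library 1, -0.01 without control library 1 and -0.13 without knockout library 3. In bulk RNA, fewer cells of a type and less RNA per cell cannot be told apart in any of these differences.

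Over all members, Plxna2 and Sema6b included, blocked estimates lay below 0 for 20 and above 0 for 13. At an unadjusted p under 0.05 with the block, 9 of 33 members were lower (27.3%, against 9.5% of all genes) and 1 was higher (3.03%, against 8.69%). Within same-numbered pairs, 14 members (42.4%) were lower in the knockout in all 3 pairs, as were 20.9% of all genes, and 6 members (18.2%) were higher in all 3, as were 19.6% of all genes. These pair counts depend on scaling, and with library totals 10 members were lower in all 3 pairs against 15.9% of all genes. The 33 genes were not drawn at random and share libraries and replicate numbers, so these shares are given without a test.

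**Figure D2:**
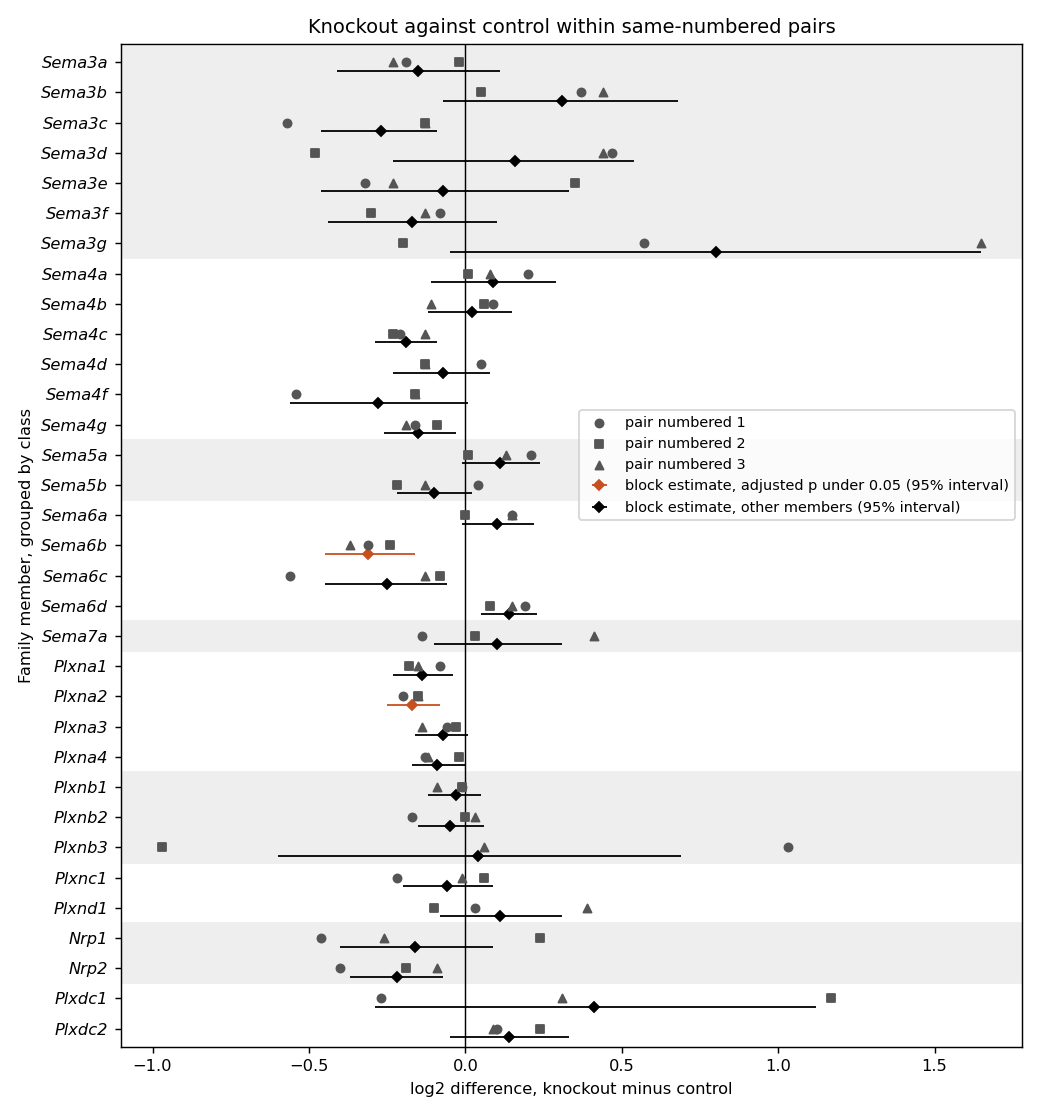
log2 difference of knockout minus control for each member, in each same-numbered pair (grey symbols) and as the edgeR estimate with the replicate block (diamonds with 95% intervals). Plxna2 and Sema6b, in orange, are the members with an adjusted p under 0.05, and estimates for most others lie within 0.3 of 0.

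Among the receptors, Plxna2 fell and all 4 A plexins were lower in the 3 pairs after TMM scaling. Plxna2 is a receptor for class 6 semaphorins and, with neuropilins, for class 3 semaphorins. It stood at 435, 475 and 498 CPM in control and 383, 442 and 453 CPM in knockout libraries, in the order of the replicate numbers. The knockout library was lower in each pair, while the groups overlapped because knockout libraries 2 and 3 exceeded control library 1. With the block Plxna2 fell by 0.17 in log2 terms (95% interval -0.25 to -0.08, edgeR adjusted p = 0.0429), to 0.890 of control. That call did not hold with library totals (adjusted p = 0.0765), upper quartile scaling (0.0711), a minimum mean of 5 CPM (0.0784) or GC correction (0.0533), nor without the pair numbered 1 (0.251), 2 (0.102) or 3 (0.125). Over the settings with the block its change stayed between -0.18 and -0.14.

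The other A plexins did not pass. Plxna1, the main partner of Sema6d, stood at 146, 131 and 183 CPM in control and 139, 119 and 168 CPM in knockout libraries, a blocked log2 change of -0.14 (95% interval -0.23 to -0.04, edgeR adjusted p = 0.122). Plxna3, which acts with Nrp2 in class 3 signalling, was at 188, 203 and 181 against 182, 205 and 166 CPM (-0.07, edgeR adjusted p = 0.362). Plxna4, which acts with Nrp1, was at 155, 231 and 360.4 against 143, 236 and 335 CPM (-0.09, edgeR adjusted p = 0.252). Scaling moved the second pair of both genes across 0, since the TMM factor of control library 2 was 0.972, and with library totals only 2 A plexins were lower in all 3 pairs. Summed over the 4 genes, A plexins stood at 923.9, 1039.5 and 1222 CPM in control and 847.7, 1001 and 1122 CPM in knockout libraries.

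B, C and D plexins showed no change that passed. Plxnb2 was at 529.9, 502 and 432 CPM in control and 477, 519 and 446 CPM in knockout libraries, and Plxnb1 was at 407, 269 and 391 against 409.6, 276 and 372 CPM. Their blocked 95% intervals were narrow, -0.15 to 0.06 for Plxnb2 and -0.12 to 0.05 for Plxnb1 on the log2 scale (edgeR adjusted p = 0.683 and 0.688). Plxnb3, a receptor of Sema5a, moved in opposite directions between pairs, at 29.9, 50.1 and 19.7 against 61.8, 26.3 and 20.8 CPM, and its interval was accordingly wide (-0.60 to 0.69). Plxnc1, the receptor of Sema7a, was at 79.0, 84.8 and 90.3 against 68.5, 91.0 and 90.9 CPM. Plxnd1, a receptor of Sema3e that is known from blood vessels, was at 51.1, 51.7 and 88.5 against 52.9, 49.8 and 117 CPM, with knockout library 3 highest. Values of Plxnb3, Plxnc1, Plxnd1, Plxna1 and, below, of other members outside the naming rule are given after they were seen.

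Neuropilins were lower on average without passing. Nrp2, the neuropilin that binds Sema3f, stood at 44.5, 119.5 and 117 CPM in control and 34.1, 108 and 111 CPM in knockout libraries, lower in each pair (blocked log2 change -0.22, 95% interval -0.37 to -0.07, edgeR adjusted p = 0.109). Nrp1, which binds Sema3a and also VEGF, was at 51.3, 60.5 and 136 against 37.7, 73.5 and 115 CPM, higher in the second pair and lower in the other pairs (-0.16, edgeR adjusted p = 0.505). Without the pair numbered 2, Nrp1 was called at -0.36 (SE 0.08, edgeR adjusted p = 0.0336). Plxdc1 and Plxdc2, transmembrane proteins with a plexin-like domain, were at control means of 2.22 ± 1.29 and 27.9 ± 11.4 CPM and knockout means of 2.99 ± 1.56 and 31.0 ± 11.3 CPM (SD, n = 3 each), and neither passed.

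Among the ligands, Sema6b fell, and the class 6 semaphorins did not move together. These are membrane-bound ligands of A plexins. Sema6b stood at 37.8, 50.2 and 75.1 CPM in control and 30.8, 43.9 and 58.8 CPM in knockout libraries. It was lower in the knockout in each pair, by 0.31, 0.24 and 0.37 in log2 terms, and its levels also differed between numbers. The blocked fall was 0.31 on the log2 scale (95% interval -0.45 to -0.16, edgeR adjusted p = 0.0355), to 0.808 of control. The call did not hold with library totals (adjusted p = 0.0599) or upper quartile scaling (0.0559), nor without the pair numbered 1 (0.0965), 2 (0.0607) or 3 (0.212). Sema6b had the highest transcript GC content of the family, 63.5%, and after GC correction its change was -0.17 (SE 0.07, edgeR adjusted p = 0.236). Sema6c, the member with the next highest GC content (61.5%), was at 126, 145 and 97.4 against 85.9, 142 and 90.2 CPM, and its blocked change of -0.25 (edgeR adjusted p = 0.144) was -0.12 after the same correction. Sema6d was higher in the knockout in each pair, at 178, 130 and 195 CPM in control and 206, 142 and 220.1 CPM in knockout libraries (0.14, 95% interval 0.05 to 0.23, edgeR adjusted p = 0.0908). Sema6d passed in 1 of 12 settings with the block, that of library totals (adjusted p = 0.049). Sema6a, a ligand of Plxna2 and Plxna4, was at 128, 81.7 and 130.3 against 144, 84.5 and 146 CPM (0.10, edgeR adjusted p = 0.322).

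Sequences before the RefSeq starts are shown for Plxna2 and Sema6b only, because these members passed with the block. Each is the 250 bases before the annotated start (RefSeq, GRCm38.p6), 5′ to 3′ on the gene's strand, with the GC box GGGCGG and its complement CCGCCC in capitals. For Plxna2 the window is chr1:194619579-194619828 on the plus strand, for Sema6b, whose upstream-most of 2 annotated starts was used, chr17:56140344-56140593 on the minus strand.
Plxna2: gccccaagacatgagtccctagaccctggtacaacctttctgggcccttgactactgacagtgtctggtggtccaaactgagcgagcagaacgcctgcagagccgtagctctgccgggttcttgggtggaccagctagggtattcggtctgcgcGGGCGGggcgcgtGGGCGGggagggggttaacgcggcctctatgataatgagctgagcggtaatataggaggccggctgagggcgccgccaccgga
Sema6b: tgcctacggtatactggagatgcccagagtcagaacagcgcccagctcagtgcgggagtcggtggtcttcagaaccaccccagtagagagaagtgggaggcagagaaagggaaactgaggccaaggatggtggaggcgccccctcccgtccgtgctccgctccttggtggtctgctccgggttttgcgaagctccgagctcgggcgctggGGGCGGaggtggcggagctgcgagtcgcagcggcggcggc
The windows held 18 CpG dinucleotides for Plxna2 and 20 for Sema6b, where the median was 6 over 32851 such windows and 13 over those of the family. The window of the other annotated start of Sema6b held 5. The GC box occurred 2 times for Plxna2 and once for Sema6b, and in 32.7% of all windows of that length and 73% of the 37 windows found for 26 members. The E-box CAGCTG and the TATA box TATAAA, searched on both strands, were in neither window and in 13% and 12.4% of all windows. These matches describe the letters and not binding. The Plxna2 gene (ENSMUSG00000026640.12) spans chromosome 1 from 194618218 to 194816869, and Sema6b (ENSMUSG00000001227.12) spans chromosome 17 from 56123085 to 56140343, in GENCODE M21. The Plxna2 window thus lies within the span of the gene as GENCODE M21 gives it, whose first base lies before the RefSeq start.

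Of the 6 class 4 semaphorins 0 passed, 3 were lower in all 3 pairs, 1 was higher and 2 were mixed. After the same TMM scaling, 20.9% of all genes were lower and 19.6% higher in all 3 pairs, and such counts depend on scaling. Sema4c stood at 119, 138 and 148 CPM in control and 104, 122 and 137 CPM in knockout libraries, lower in each pair by 0.21, 0.23 and 0.13 in log2 terms. Its blocked change of -0.19 (95% interval -0.29 to -0.09, edgeR adjusted p = 0.0551) was the nearest to the threshold among members not called. Exons of Sema4c, Plxna1, Plxna4 and Plxnb1 overlap a gene on the opposite strand, and no source used here states the strand setting of the counting, so reads of such partners may be included. Sema4g was lower in each pair too, at 89.1, 106 and 136 against 80.8, 103 and 121 CPM (-0.15, edgeR adjusted p = 0.154). Sema4d, the ligand of Plxnb1, was at 29.5, 54.6 and 71.4 against 30.9, 51.3 and 66.2 CPM (-0.07, edgeR adjusted p = 0.638). Sema4a was the one higher in each pair, with a blocked log2 change of 0.09, and Sema4f was lower in each pair, at -0.28 the lowest estimate of the family after Sema6b. Sema4b was mixed (0.02).

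Of the 7 class 3 semaphorins, 0 passed. Sema3c, by far the most abundant, was at 102, 98.4 and 127 CPM in control and 69.4, 92.8 and 118 CPM in knockout libraries, lower in each pair and most in the first (blocked log2 change -0.27, 95% interval -0.46 to -0.09, edgeR adjusted p = 0.110). The difference of the first pair was -0.57 and that of the other pairs -0.13 each, and without the pair numbered 1 the blocked change of Sema3c was -0.12. Sema3a, which repels axons, was at 9.07, 10.4 and 21.7 against 8.02, 10.5 and 18.8 CPM, and Sema3f, a ligand of Nrp2, at 5.58, 11.6 and 23.5 against 5.35, 9.67 and 21.8 CPM. Sema3f was far apart between numbers and closer within pairs, whereas Sema3a stood apart only in the libraries numbered 3. Sema3g, which is known from arterial endothelium, was at 1.40, 0.964 and 1.85 against 2.12, 0.856 and 6.03 CPM, and its estimate of 0.80 had a 95% interval of -0.05 to 1.65 (edgeR adjusted p = 0.308). Sema3b, Sema3d and Sema3e had control means of 5.42, 17.1 and 7.39 CPM and blocked log2 changes of 0.31, 0.16 and -0.07.

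Class 5 and class 7 ligands did not pass either. Sema5b was at 212, 151 and 175 CPM in control and 221, 134 and 162 CPM in knockout libraries (blocked log2 change -0.10, edgeR adjusted p = 0.349), and it was 0.04 after GC correction. Sema5a was at 87.6, 112 and 88.9 against 103, 116 and 98.2 CPM, higher in each pair (0.11, edgeR adjusted p = 0.321). Sema7a was at 66.3, 70.4 and 101 against 60.9, 74.0 and 136 CPM (0.10, edgeR adjusted p = 0.618), and without the pair numbered 3 its blocked change was -0.05.

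**Figure D3:**
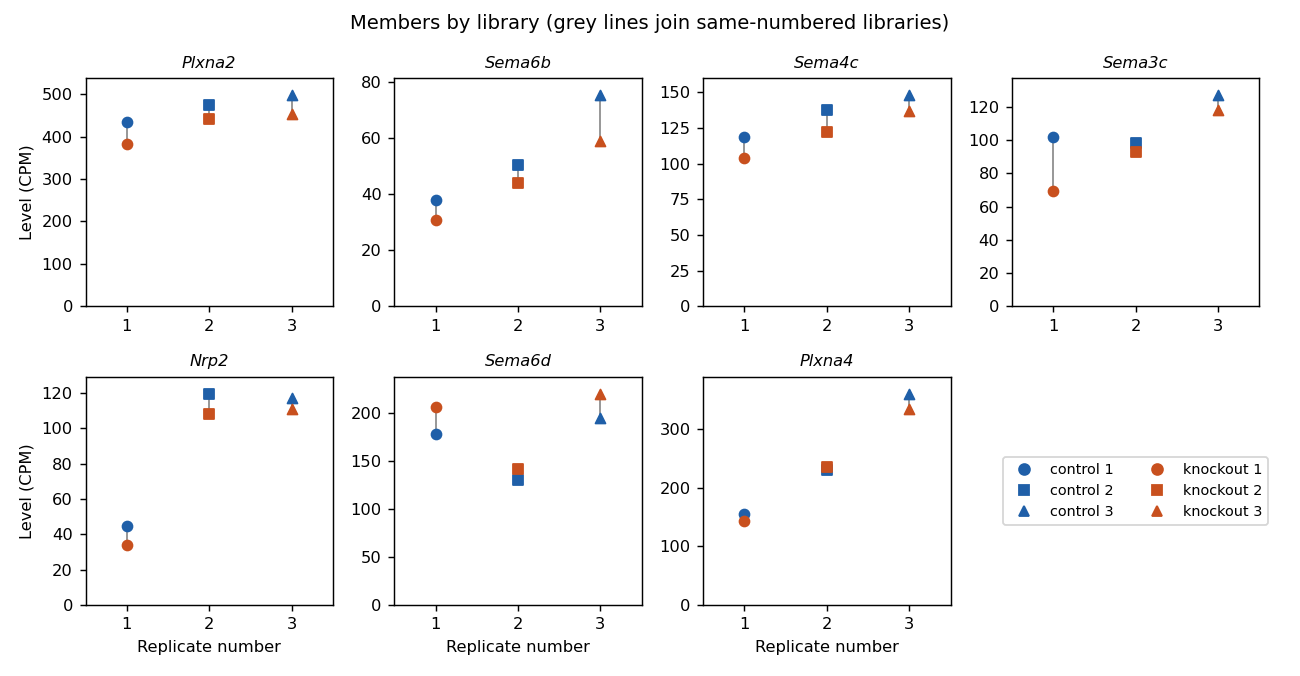
CPM of 7 members in every library by replicate number, control in blue and knockout in orange, with axes from 0 and grey lines joining same-numbered libraries. Plxna2, Sema6b, Sema4c, Sema3c and Nrp2 are lower in the knockout in each pair and Sema6d is higher. In both genotypes Nrp2 is far lower in the library numbered 1 than in the others, and Plxna4 rises from number 1 to number 3.

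Levels of the family differed widely between replicate numbers. The range between the 3 pair means had a median of 0.73 in log2 terms over the 33 members and of 0.45 over all genes tested. The median size of the blocked genotype change was 0.14 for the family and 0.11 for all genes, but a range over 3 means is larger than a single difference even by chance, so the size of the range is not set against it. Sema3f had the widest range, 2.02, followed by Sema3g at 1.77, Nrp2 at 1.56, and Nrp1 and Sema3b at 1.49 each. Plxna2 had the narrowest, 0.20.

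Markers of other cells moved with the numbers as well, and their part in the members' levels was not tested. Nrp2, Sema4d and Plxna4 were lowest in the libraries numbered 1 of both genotypes. OPC and astrocyte marker sums were highest in those libraries. They were 4903 CPM (control) and 5773 CPM (knockout) for the 15 OPC markers, against 2851 to 4353 CPM in the others. For the 13 astrocyte markers they were 3570.5 and 4189 CPM, against 1928 to 3559.5 CPM. In the libraries numbered 1 the 15 microglial and macrophage markers summed to 42.7 CPM (control) and 41.4 CPM (knockout), against 321 to 478 CPM in the others. The defining marker Csf1r was at 4.81 and 3.77 CPM there. The defining neuronal markers Tubb3 (639.6 and 523 CPM), Rbfox3 (28.2 and 22.3 CPM) and Snap25 (61 and 60.7 CPM) were also lowest there. The 20 neuronal markers summed to 4966, 6506 and 4927 CPM in control and 4359, 6115 and 4351 CPM in knockout libraries. Those sums were nearly equal in the libraries numbered 1 and 3 and highest in the libraries numbered 2. Plxnb3 was highest in knockout library 1 and control library 2, as was the sum of the 16 oligodendrocyte markers, at 1131 and 1157 CPM against 335 to 656 CPM elsewhere. Sema3g, Plxnd1 and Sema7a were highest in knockout library 3. There the 15 endothelial markers summed to 312 CPM, against 21.7 to 124 CPM in the other libraries. The pericyte and fibroblast markers (1342 CPM against 153 to 892 CPM) and the ependymal and choroid plexus markers (2897 CPM against 371 to 1955 CPM) were also highest in that library.

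The other genes of the pathway were followed in a list of 57 partners, of which 56 were tested. Without the block edgeR called 0 of them, 1 had an unadjusted p under 0.05, and DESeq2 and limma-voom called 0. With the block 2 rose, 3 fell and 51 did not pass, with a median log2 change of 0.01. The share called was 8.93%, against 3.8% of all genes, and 26.8% had an unadjusted p under 0.05, against 18.2% of all genes. The genes that rose encode VEGF receptors. Kdr, which pairs with Nrp1, went from 14.9, 3.56 and 24.0 CPM to 32.3, 11.1 and 67.6 CPM (log2 change 1.37, SE 0.11, edgeR adjusted p = 0.00117), and Flt1 from 6.61, 1.89 and 9.96 CPM to 15.4, 5.35 and 38.9 CPM (1.56, SE 0.16, edgeR adjusted p = 0.00272). Each was higher in all 3 pairs and passed in all 12 settings with the block. Beside them, 10 of the 15 endothelial markers rose with the block (66.7%, against 1.57% of all genes), 0 fell and 5 did not pass. Their sum ranged from 21.7 to 99.8 CPM in control and from 48.7 to 312 CPM in knockout libraries. None of the defining endothelial markers Cldn5, Cdh5 and Pecam1 was at 0, and their part in the Kdr and Flt1 values was not tested. Neither neuropilin passed.

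The partners that fell come from the list of collapsin response mediators, kinases and actin regulators, genes known to act downstream of semaphorins. Of its 16 genes 3 fell, 0 rose and 13 did not pass, a share called of 18.8% against 3.8% of all genes. At an unadjusted edgeR p under 0.05 with the block, 31.2% were lower and 6.25% higher, against 9.5% and 8.69% of all genes. Cdk5r1, the activator of the kinase Cdk5 that phosphorylates collapsin response mediators, stood at 274, 393 and 368 CPM in control and 206, 346 and 296 CPM in knockout libraries (log2 change -0.33, SE 0.04, edgeR adjusted p = 0.00688), and it passed in all 12 settings with the block. The collapsin response mediator genes Crmp1 (485, 674 and 678 against 384, 641 and 597 CPM) and Dpysl5 (373, 512 and 613 against 310.1, 496 and 523 CPM) fell by 0.22 and 0.21 (SE 0.05 each, edgeR adjusted p = 0.0471 and 0.0429). Neither Crmp1 nor Dpysl5 passed without the pair numbered 1 (0.283 and 0.247) or 3 (0.115 and 0.165), with library totals (0.0787 and 0.0794), with upper quartile scaling (0.0686 and 0.0697), with a minimum mean of 5 CPM (0.0942 and 0.0864) or after GC correction (0.0659 and 0.0662), and Crmp1 did not pass with DESeq2 size factors (0.0503). Dpysl3, of the same gene family, was at 912, 1083 and 1102 against 796, 1013 and 1052 CPM, lower in each pair, and did not pass (-0.15, edgeR adjusted p = 0.152). Dpysl3 passed in 2 of 12 settings with the block, those of DESeq2 (adjusted p = 0.0306) and limma-voom (0.0291). Dpysl2, named after its values were seen, was higher in each pair, at 224, 293 and 222 against 239, 321 and 252 CPM, and did not pass (0.11, 95% interval 0.03 to 0.19, edgeR adjusted p = 0.144). Dpysl4 did not pass either (-0.11, edgeR adjusted p = 0.359). Cfl1, the actin-severing cofilin, was at 799, 836 and 846 against 833, 827 and 844 CPM (-0.01, edgeR adjusted p = 0.924). Of 20 plexin effectors and small GTPases 0 passed with the block, 3 having an unadjusted p under 0.05, and of 10 other semaphorin receptors and co-receptors 0 passed, 1 having an unadjusted p under 0.05. These shares of 15% and 10% stand beside the 18.2% of all genes.

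Neuronal transcripts were lower beside these genes and beside Plxna2 and Sema6b. Of 20 neuronal markers 5 fell with the block (25%, against 2.23% of all genes), 0 rose and 15 did not pass. Their sum was 4966, 6506 and 4927 CPM in control and 4359, 6115 and 4351 CPM in knockout libraries, lower in each pair. Of the defining neuronal markers, Tubb3 fell by 0.22 (SE 0.05, edgeR adjusted p = 0.0417) and Rbfox3 and Snap25 did not pass (-0.15 and -0.05). Of 13 astrocyte markers 5 rose with the block (38.5%, against 1.57% of all genes), 0 fell and 8 did not pass. The part of neuronal or astrocyte transcripts in the values of Plxna2, Sema6b, Cdk5r1, Crmp1 and Dpysl5 was not tested.

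**Figure D4:**
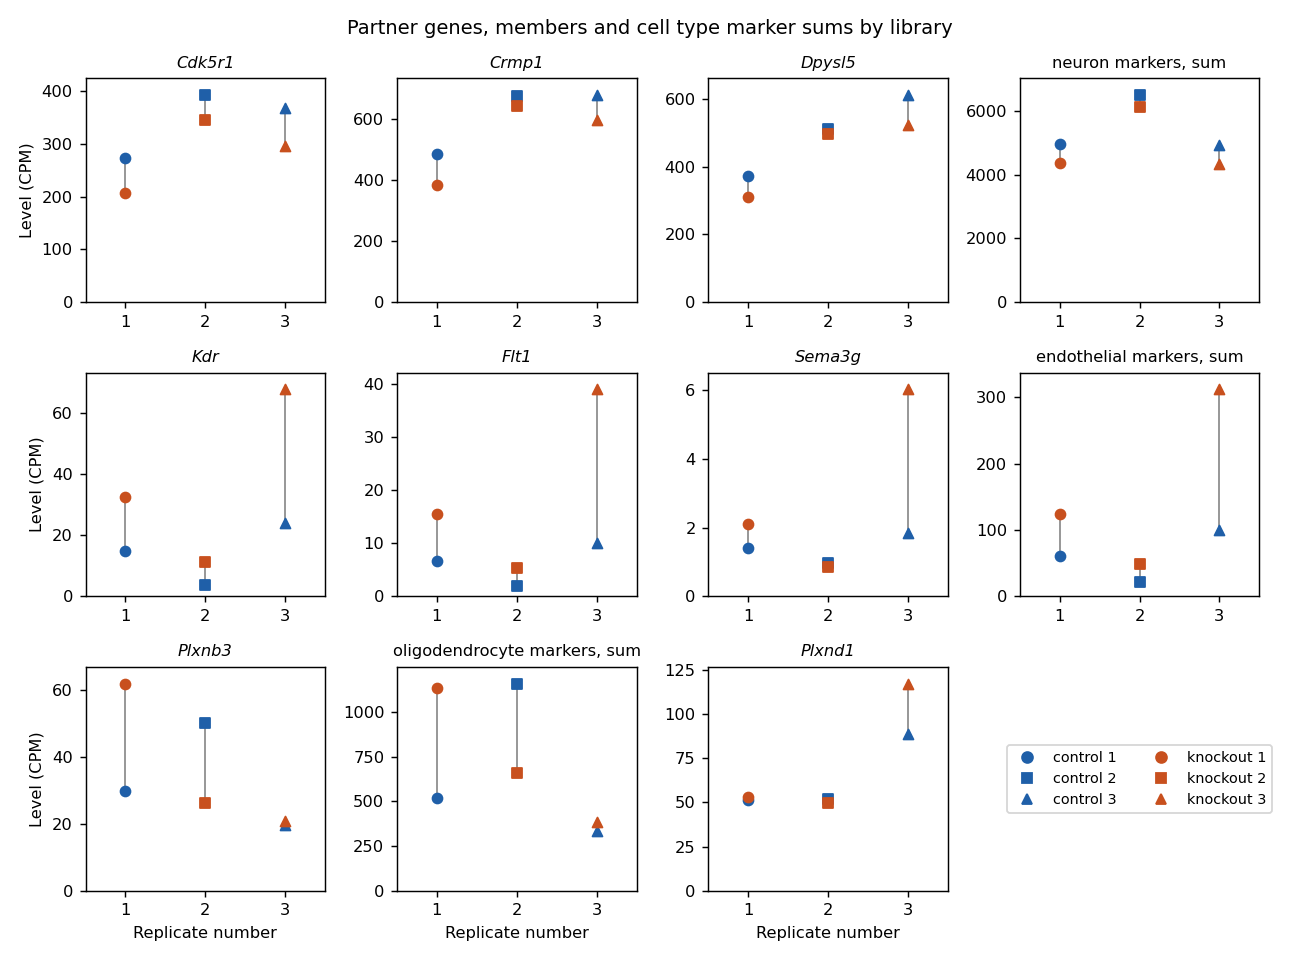
CPM by library and replicate number for the 5 called partner genes, for Sema3g, Plxnb3 and Plxnd1, and for summed neuronal, endothelial and oligodendrocyte markers, control in blue and knockout in orange. Cdk5r1, Crmp1, Dpysl5 and the neuronal sum are lower in the knockout in each pair, and Kdr, Flt1 and the endothelial sum are higher.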

How the data were processed

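The deposited values are counts of read pairs per gene symbol, whole numbers that are not normalised, from stranded poly(A) libraries sequenced in paired-end mode, per the labels' protocols. Tools listed in the submitters' processing notes, without their roles, were HTSeq 0.12.4, HISAT2 2.2.1 and DESeq2 1.26.0, with the build mm10. No source used here gives the annotation, parameters or strand setting. The 5 summary entries of each table that name no gene (27.7% to 31.1% of read pairs) were left out of totals and tests.

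Levels are CPM of gene counts. Differences in counts were tested by edgeR's quasi-likelihood method (version 4.0.16, R 4.3.3) after filterByExpr, which kept 15906 genes, and TMM scaling (factors 0.972 to 1.02), two-sided, with Benjamini-Hochberg adjustment over all genes tested. Groups came from the labels' genotypes. A second model held the replicate number as a block, because deviations from group means correlated at 0.712, 0.682 and 0.654 between same-numbered libraries, although the labels do not say what a number marks. Alternatives were 3 other scalings, 2 other filters, DESeq2 1.42.0, limma-voom (limma 3.58.1), libraries or pairs left out, and a correction for transcript GC content in 20 bins.

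Exon length, GC content and positions came from GENCODE M21 (GRCm38), matched by symbol for all 33 members. Upstream sequences came from RefSeq tables that held 26 members. Values per library are given for members called, for the 10 highest per length and for the 4 nearest to the threshold, and for partner genes called or among the 4 with the highest mean CPM, not divided by length. Vegfd is listed as Figf. Markers were also followed for OPCs, oligodendrocytes, endothelial cells, pericytes and fibroblasts, ependymal and choroid plexus cells, astrocytes, neurons and microglia. For lists whose calls are not given in the results, 0 of 15 OPC, 0 of 14 tested oligodendrocyte and 0 of 15 microglial markers passed with the block. Of pericyte and fibroblast markers 2 of 15 rose (13.3%), and of ependymal and choroid plexus markers 7 of 12 (58.3%), against 1.57% of all genes. The members and lists were chosen with earlier results of these data known. The tests were also run on simulated counts, built with the differences between replicate numbers seen in these libraries. That run cannot weigh the model with the block against that without it, and is not used as support.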

Additional observations from a re-analysis of the deposited data

Results flagged for a closer look

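For 3 of the summary entries, which no comparison above uses, all knockout libraries lay above all controls in their share of read pairs. Pairs in no gene made up 19.7% ± 0.665 of read pairs in the control group and 20.8% ± 0.5 in the knockout group (SD, n = 3 each), pairs of low alignment quality 3.11% ± 0.193 and 3.83% ± 0.248, and unaligned pairs 1.03% ± 0.0964 and 1.25% ± 0.122. Their part in the members' differences was not tested.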

How the results depend on the processing

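Without the replicate block, family and partner calls stayed at 0 under every scaling, filter, test and left-out library, and the count over all genes was 0 except with DESeq2, at 20. With the replicate block, which pairs same-numbered libraries, 2 members, 5 partners and 604 genes were called. The counts of members, partners and all genes were 2, 4 and 573 with DESeq2 size factors, 1, 3 and 502 with library totals, 0, 3 and 536 with upper quartile scaling, 5, 6 and 1034 with no filter, 1, 3 and 435 with a minimum mean of 5 CPM, 2, 7 and 680 with DESeq2, 2, 6 and 712 with limma-voom, and 0, 3 and 385 after GC correction. With a pair left out they ranged from 0 to 1, 3 to 5 and 174 (without pair 3) to 521, with 444 without pair 1. The cause of these differences was not tested. Filters also changed how many members, partners and genes were tested. These were 33, 57 and 20148 with no filter and 31, 49 and 12051 with a minimum mean of 5 CPM. The default filter on all 6 libraries kept 33, 56 and 15906. Members lower in all 3 pairs numbered 14 with TMM or DESeq2 size factors and 10 with library totals or upper quartile scaling. The log2 change of Prrc2b passed in all settings with the block, at -0.41, -0.39 (library totals, upper quartile and 5 CPM), -0.42 (no filter) and -0.40 (GC correction), and from -0.47 to -0.35 with a pair left out. Among named genes, signs changed only for ones that passed in no setting: Cfl1 to 0.01 under library totals, upper quartile and 5 CPM, with or without the block, and Sema5b to 0.04 with GC correction. Sema7a was at -0.05 with the block and without pair 3. With a library or pair left out the ranges were -0.13 to 0.02 for Plxnb2, -0.19 to 0.11 for Plxnb1, -0.25 to 0.37 for Sema7a, -0.31 to 0.06 for Sema5b, -0.16 to 0.00 for Plxna3, -0.41 to 0.26 for Plxna4, -0.52 to 0.19 for Nrp2 and -0.04 to 0.01 for Cfl1. Intervals were widest for Sema3g and Plxdc1, at under 5 CPM in most libraries, and next for Plxnb3, at 19.7 to 61.8 CPM.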
